A study of Mus musculus with 6 samples.

Results

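The 5 actin genes described here, Acta1, Actc1, Acta2, Actb and Actg1, were found among the 39177 genes of the count files by their Ensembl identifiers. All 5 passed the filter on low counts, as did 2351 of 39142 nuclear genes. RNA of crude mitochondria from hearts of C57BL/6N mice aged 3 to 4 weeks was sequenced in 6 libraries. The 3 control mice (L/L) carried Polrmt alleles with loxP sites around exon 3 and no cre, although their genotype label reads Polrmt +/+. The 3 knockout mice (L/L, cre; labelled Polrmt -/-) carried the same alleles and a cre driven by the promoter of muscle creatine kinase, which is active in striated muscle. Polrmt encodes the RNA polymerase of mitochondria, and the labels give no measure of heart function, so the hearts are called knockout and not failing. Nuclear transcripts were those that came down with the mitochondria, and how well they stand for the RNA of the whole cell was not measured.

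Nuclear genes had 499334 to 586461 counts per control and 838015 to 910826 per knockout. With mitochondrial genes, the totals were 2867067 to 3234729 counts per control and 1062030 to 1227997 per knockout. The nuclear part was thus 16.5% to 20.5% of all counts in controls and 74.2% to 78.9% in knockouts, so the groups differ in the make-up of their libraries. Most nuclear counts lay in 5 loci that collect ribosomal RNA reads, which held between 80.6% and 84.9% of nuclear counts per library. The actin genes had 647, 935 and 1068 counts in the controls and 807, 1001 and 1371 in the knockouts. Polrmt had 3, 2 and 1 counts in controls and 2, 5 and 1 in knockouts, and a count per gene does not resolve exon 3, so it checks neither the deletion nor the labels.

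Actins are the globular proteins that assemble into the thin filaments of the sarcomere and into the filaments under the cell membrane. Mammals have a separate gene for each isoform. Actc1 encodes the cardiac and Acta1 the skeletal muscle form, which both build sarcomeres, Acta2 the form of vascular smooth muscle, and Actb and Actg1 the cytoplasmic forms found in nearly all cells. The fetal heart uses more of the skeletal and smooth muscle forms than the adult heart, and a return of Acta1 is a classical sign of load on the heart muscle.

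The isoforms are so alike that their reads are told apart by scattered bases, so the starts of the coding sequences are shown. In the first 60 bases of the GENCODE M21 transcripts (5′ to 3′), capitals mark bases that differ from Acta1 for the muscle forms, and from Actb for Actg1.
Acta1: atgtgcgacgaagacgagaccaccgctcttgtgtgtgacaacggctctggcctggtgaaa
Actc1: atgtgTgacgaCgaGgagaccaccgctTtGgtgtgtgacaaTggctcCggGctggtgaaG
Acta2: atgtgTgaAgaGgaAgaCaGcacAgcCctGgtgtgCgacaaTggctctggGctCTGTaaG
Actb: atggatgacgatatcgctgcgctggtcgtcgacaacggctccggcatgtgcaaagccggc
Actg1: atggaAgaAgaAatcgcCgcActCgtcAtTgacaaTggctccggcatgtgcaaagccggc
Actc1 differed from Acta1 at 9 of these bases, Acta2 from Acta1 at 17, and Actg1 from Actb at 9. Over whole coding sequences, Acta1 was 86.2% identical to Actc1 and 85.4% to Acta2, and Actb was 88.7% identical to Actg1. The longest stretch without a difference was 29 bases between Acta1 and Actc1 and 62 bases between Actb and Actg1. The longest of any pair was 77 bases, between Acta1 and Actb.

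Each isoform's transcript was cut into all windows of 50 bases, and windows also found in a transcript of another annotated gene were counted. None of the 1424 windows of Actc1 was found elsewhere, and 2.22% of those of Acta1 and 0.352% of those of Acta2 were. For Actb the share was 14.2%. It was 56.7% for Actg1, or 1079 of 1903 windows, of which 973 were also in Gm12715 (9 counts over the 6 libraries) and 677 in Gm8399 (3 counts). The sources used here do not give how reads with several alignments were counted. The values of Actg1, and less so of Actb, are therefore uncertain, while those of Actc1, Acta1 and Acta2 rest almost wholly on windows of their own.

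Compared with controls, Acta1 rose in the knockouts while Actc1, Acta2 and Actb fell. The Acta1 transcript went up 15.98-fold, and the other 3 went down between 1.54-fold and 2.03-fold. Actg1 did not pass the test. In edgeR's quasi-likelihood test on nuclear counts, 1 of the 5 genes was thus higher and 3 were lower at an adjusted p under 0.05. Of all 2351 genes tested, 8.46% were called higher (199 genes) and 6.85% lower (161 genes), or 15.3% in either direction. Levels below are CPM, which scales each library to the same nuclear total, with TMM scaling, which sets the bulk of nuclear transcripts to no change. A value after ± is the SD over the 3 libraries of a group (n = 3) for levels, shares and ratios, and the standard error (SE) for log2 fold changes. In bulk RNA, fewer cells of a type and less RNA per cell cannot be told apart.

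**Figure D1:**
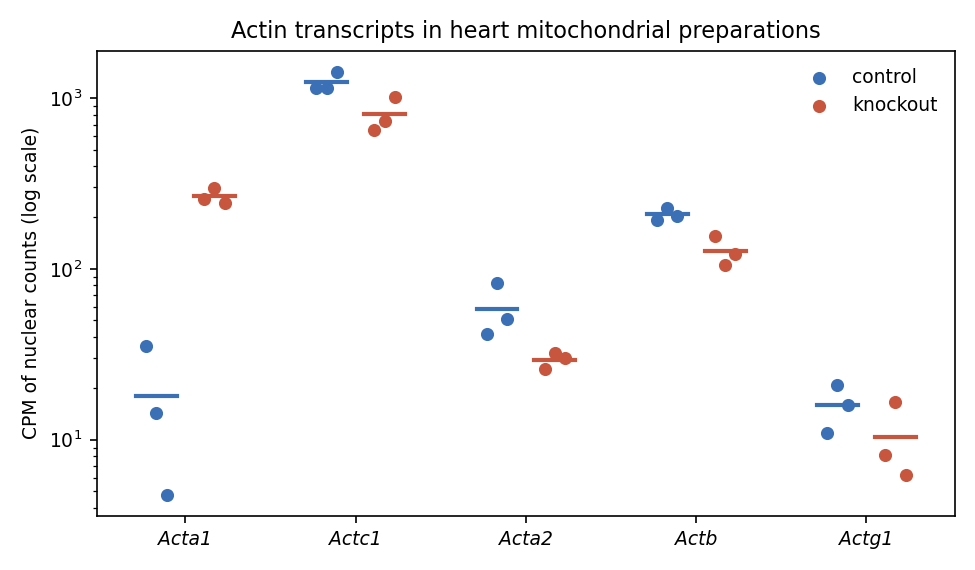
CPM of each actin gene (log axis) in the 3 control and 3 knockout libraries; points are libraries and bars are group means. Control points of Acta1 run from 4.77 to 35.2 CPM and knockout points from 244 to 299 CPM, and the groups also stand apart, in the other direction, for Actc1, Acta2 and Actb.

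Acta1 (ENSMUSG00000031972, chromosome 8, 123891769 to 123894751, GRCm38, minus strand), the skeletal muscle form, had 16, 9 and 3 counts in the controls and 189, 251 and 236 in the knockouts. Its levels were 35.2, 14.4 and 4.77 CPM in controls and 257, 299 and 244 CPM in knockouts. Every knockout lay far above every control, and the controls were spread more widely, relative to their mean, than the knockouts. The log2 fold change was 4.00 ± 0.28 (SE; 95% interval 3.42 to 4.58; edgeR adjusted p = 5.45e-10), the 5th largest rise among the tested genes. By control level Acta1 ranked 1667 of 2351 tested genes, and by knockout level 61. Its fold change rests on 28 control counts: it was 4.78 on the log2 scale without control 1 (27.5-fold) and 3.51 without control 3 (11.4-fold). The value without control 1 lies outside the 95% interval. DESeq2 gave a log2 fold change of 3.91 with a larger SE, 0.63.

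Actc1 (ENSMUSG00000068614, chromosome 2, 114047282 to 114053548, minus strand), the cardiac form, was the most abundant actin in every library. It had 1141, 1148 and 1424 CPM in controls and 653, 739 and 1016 CPM in knockouts. All knockouts lay below all controls, with knockout 3 the nearest to them. The log2 fold change was -0.62 ± 0.13 (SE; 95% interval -0.89 to -0.36; edgeR adjusted p = 3.85e-04), a 1.54-fold fall. Actc1 still ranked 14 of the 2351 tested genes by level in knockouts, against 12 in controls.

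Acta2 (ENSMUSG00000035783, chromosome 19, 34241090 to 34255590, minus strand), the smooth muscle form, had 41.8, 83.1 and 50.9 CPM in controls and 25.9, 32.2 and 29.996 CPM in knockouts. The knockouts were close to each other and below every control, and control 2 stood above the other controls. The log2 fold change was -1.02 ± 0.24 (SE; edgeR adjusted p = 8.73e-04). This call was lost without control 2 (log2 fold change -0.67, adjusted p = 0.115) and in DESeq2 (-1.02, adjusted p = 0.0564). DESeq2 called 3.96% of the tested genes higher and 2.13% lower (6.08% in either direction), and Acta1 higher with Actc1 and Actb lower.

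Actb (ENSMUSG00000029580, chromosome 5, 142903115 to 142906754, minus strand), the beta form of the cytoplasm, is often used as a reference gene. It had 194, 229 and 204 CPM in controls and 155, 106 and 122 CPM in knockouts. The groups did not overlap, and the log2 fold change was -0.72 ± 0.15 (SE; 95% interval -1.01 to -0.43; edgeR adjusted p = 1.32e-04). Levels scaled on Actb would thus be 1.65-fold higher in the knockouts than levels scaled on nuclear counts.

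Actg1 (ENSMUSG00000062825, chromosome 11, 120345690 to 120348542, minus strand), the gamma form of the cytoplasm, had 5, 13 and 10 counts in controls and 6, 14 and 6 in knockouts. Its levels of 11.0, 20.8 and 15.9 CPM in controls overlapped with those of 8.17, 16.7 and 6.21 CPM in knockouts. The log2 fold change was -0.66 ± 0.46 (SE; edgeR adjusted p = 0.355), with a 95% interval from -1.57 to 0.24. At this depth neither no change nor a fall as large as that of Acta2 could be told apart from the measured value.

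**Figure D2:**
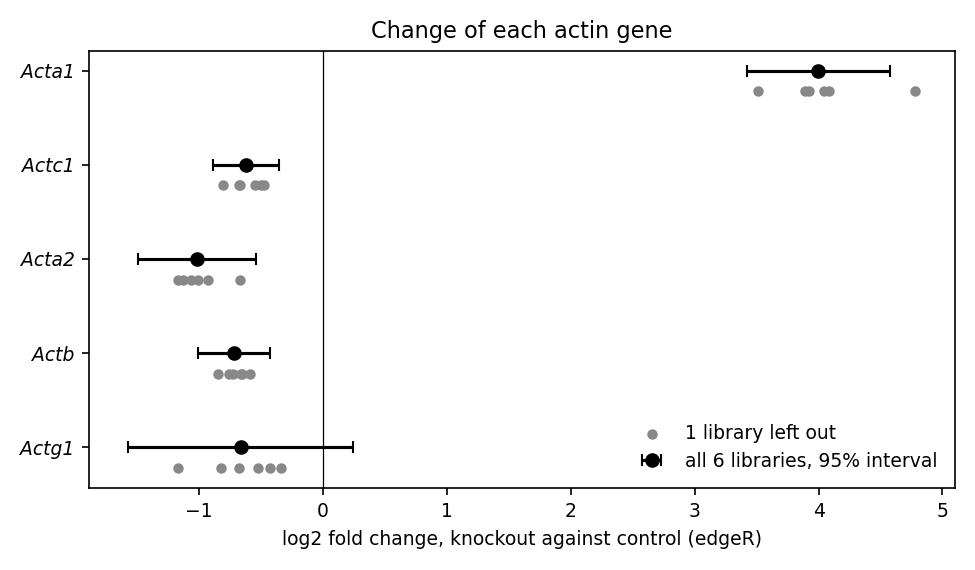
Log2 fold change of each actin gene, knockout against control, with its 95% interval (black) and the values with 1 library left out at a time (grey). Acta1 stays between 3.51 and 4.78, Actc1 between -0.81 and -0.48 and Actb between -0.85 and -0.59, while the interval of Actg1 includes 0.

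Groups that do not overlap were found for 4 of the 5 genes, and for 32.8% of all tested genes. The direction of all 5 genes was the same under each scaling tried. Without TMM the median log2 fold change of all genes moved from -0.01 to -0.10, and Acta1 was at 3.90, Actc1 at -0.70, Acta2 at -1.12 and Actb at -0.82. Higher genes were then 44.5% of all calls, against 55.3% with TMM. Measured against Myh6, the main myosin of the adult mouse heart, whose log2 fold change was 0.001 ± 0.14 (SE; edgeR adjusted p = 0.99991), Acta1 was 4.19 higher on the log2 scale. On this scale, chosen after seeing the data, Actc1 was at -0.65, Acta2 at -0.94, Actb at -0.73 and Actg1 at -0.70. The exact permutation p was 0.1 for the first 4, the smallest that 3 against 3 allows, and 0.3 for Actg1. Since Myh6 hardly changed on nuclear counts, differences measured against it had to lie near those on nuclear counts. They are thus not a separate check.

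In the authors' deposited table, Acta1 had a log2 fold change of 4.04 (false discovery rate 3.39e-58). That table gives -0.69 for Actb (4.63e-03) and -0.98 for Acta2 (9.31e-03), both past a false discovery rate of 0.05. For Actc1 the authors' deposited table gives -0.61 with a false discovery rate of 0.0754, and for Actg1 -0.62 with 0.525. Actc1 is therefore a call of the test used here and not of the authors' deposited table, with nearly the same fold change in both. Of the 6319 genes in the authors' deposited table, 3.09% were higher and 2.23% lower at that rate.

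The make-up of the actin transcripts was compared as shares of the counts per kilobase of exon, which need no scaling between libraries. Actc1 held most of the actin transcripts of every library, and Acta1 was the second largest share in each knockout. The share of Acta1 was 2.78%, 1.10% and 0.314% in controls and 26.04%, 27.4% and 18.7% in knockouts. The means were 1.40% ± 1.26 and 24.0% ± 4.64, a difference of 22.6 points (exact permutation p = 0.1, adjusted over the 5 shares 0.167). Actc1 held 85.6%, 83.5% and 89.0% in controls and 62.6%, 64.1% and 74.0% in knockouts, and its mean fell by 19.1 points (exact permutation p = 0.1). These differences were larger than the spread between replicates, but 3 against 3 cannot give a p below 0.1.

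**Figure D3:**
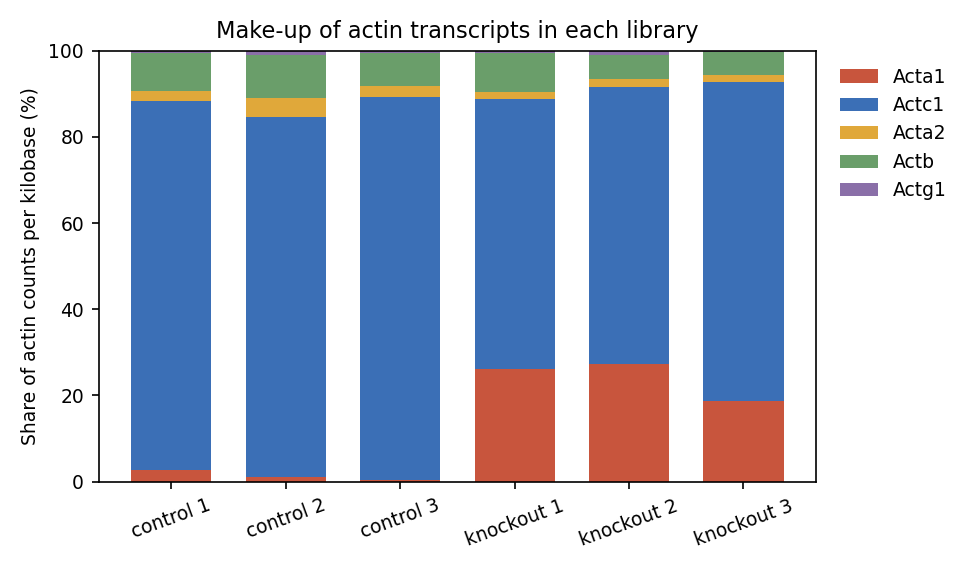
Share of each isoform in the summed counts per kilobase of the 5 actin genes, by library, in percent. Acta1 takes between 18.7% and 27.4% in the knockouts and at most 2.78% in the controls, and Actc1 remains the largest share in all 6 libraries.

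Acta2 held 3.04% ± 1.23 in controls and 1.83% ± 0.224 in knockouts (exact permutation p = 0.1). Without control 2 its difference of -1.20 points was -0.495 points. Actb held 8.83% ± 1.18 and 6.65% ± 2.05 (exact permutation p = 0.3), with overlapping groups. The share of Actg1 was 0.676% ± 0.218 and 0.545% ± 0.309 (exact permutation p = 0.5). Adjusted over the 5 shares, none of these p-values was below 0.167. The exon length of Actb and Actg1 includes retained introns, which lowers their level per length.

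Between the 2 sarcomeric forms alone, the raw counts give the share of Acta1 with its counting error. Acta1 was 16 of 535 counts in control 1 (2.99%, 95% Clopper-Pearson interval 1.72 to 4.81), 9 of 727 in control 2 (1.24%, 0.568 to 2.34) and 3 of 898 in control 3 (0.334%, 0.0689 to 0.973). It was 189 of 668 in knockout 1 (28.3%, 24.9 to 31.9), 251 of 871 in knockout 2 (28.8%, 25.8 to 32.0) and 236 of 1218 in knockout 3 (19.4%, 17.2 to 21.7). The intervals of knockouts 1 and 2 overlap, and that of knockout 3 lies below both. The interval of control 2 overlaps with those of controls 1 and 3, which do not overlap with each other. Such intervals treat reads as independent molecules, which they are not. They can thus be too narrow even for counting error, and they leave out the spread between mice.

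As a ratio within each library, Acta1 to Actc1 (counts per kilobase, log2) was -4.90, -6.17 and -7.92 in controls and -1.26, -1.23 and -1.98 in knockouts. The ratio rose by 4.84 on the log2 scale, or 28.6-fold (exact permutation p = 0.1, adjusted over 4 ratios 0.4). It rose by 4.04 without control 3 and by 5.55 without control 1. Acta2 to Actc1 differed by -0.29 (exact permutation p = 0.6) and Actg1 to Actb by 0.03 (exact permutation p = 1.0), both within the spread between replicates. The ratio of the sarcomeric to the cytoplasmic forms differed by 0.49 on the log2 scale (exact permutation p = 0.3), and the groups overlapped. Of the 4 ratios, the one between the sarcomeric forms was thus the one whose groups stood apart.

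Summed per length, the actin transcripts were not higher in the knockouts. The sum of the sarcomeric forms was 728, 719 and 883 RPKM (CPM divided by the exon length in kilobases) in controls and 571, 651 and 787 RPKM in knockouts, with overlapping groups (exact permutation p = 0.3). Within it, the mean of Acta1 went from 11.8 ± 10.1 to 174 ± 18.7 RPKM and that of Actc1 from 765 ± 99.9 to 496 ± 117 RPKM. The gain of Acta1, 162 RPKM, was smaller than the loss of Actc1, which fell by 269 RPKM. The cytoplasmic forms summed to 83.8 ± 8.53 RPKM in controls and 51.6 ± 8.24 in knockouts, with every knockout below every control (exact permutation p = 0.1). All 5 together were at 887 ± 88.7 and 735 ± 104 RPKM (exact permutation p = 0.2).

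Tropomyosin, the troponins and other partners of the sarcomeric actins were listed as thin filament genes. Of 18 listed genes of the thin filament and its caps, 12 were tested, of which 1 was higher, 2 were lower and 9 did not pass, beside 8.46% higher and 6.85% lower among all tested genes. Their median log2 fold change was -0.06, against -0.01 for all tested genes. Tpm1, the tropomyosin that lies along the actin filament, fell to 522 ± 33.4 CPM from 949 ± 83.1 in controls (log2 fold change -0.86 ± 0.12, edgeR adjusted p = 5.57e-08). Tnnt2, the troponin that ties the complex to tropomyosin, had a log2 fold change of -0.41 ± 0.12 (SE), a call lost without control 1, control 3 or knockout 1 (adjusted p up to 0.0735), in DESeq2 (0.0934), without the low-count filter (0.152) and without TMM (0.0585). The 1 higher gene, Mybpc3, is the cardiac myosin-binding protein C, a protein of the thick filament. With all 6 libraries, no listed gene of the thin filament proper was thus called higher. Acta1, which was, is not in this list. Mybpc3, which is also in the list of Srf targets, rose from 634 ± 32.1 to 974 ± 95.8 CPM (log2 fold change 0.62 ± 0.12). Tnni3 at -0.22 ± 0.13, Tnnc1 at 0.29 ± 0.14 and the leiomodin Lmod2, which lengthens thin filaments, at -0.33 ± 0.20 on the log2 scale did not pass the test.

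Genes for folding and turnover of actin showed 4 rises and 1 fall among 20 tested of 27 listed members, and 15 did not pass, with a median log2 fold change of 0.54. Over all tested genes 8.46% were higher and 6.85% lower, with a median of -0.01. Cfl2, the muscle cofilin that severs actin filaments, rose from 27.3 ± 5.71 to 66.0 ± 9.77 CPM (2.46-fold, edgeR adjusted p = 1.24e-05). Gsn, the severing protein gelsolin, fell to 302 ± 20.2 CPM from 554 ± 105 in controls (log2 fold change -0.88 ± 0.13, edgeR adjusted p = 2.72e-07). Both calls held in each of the 12 alternatives. Cct2, Cct3 and Cct5, subunits of the chaperonin that folds actin and tubulin, had log2 fold changes of 0.90 ± 0.27, 0.99 ± 0.31 and 0.97 ± 0.32 (SE), and each of these calls was lost in 4 to 6 of the alternatives. In DESeq2, 1 of the list was higher, and without control 2 or without knockout 1 also 1. Pfn1, a profilin that feeds actin monomers to growing ends, was at 0.90 ± 0.33 and Cfl1, the cofilin of other tissues, at -0.17 ± 0.31 on the log2 scale, neither past the test.

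**Figure D4:**
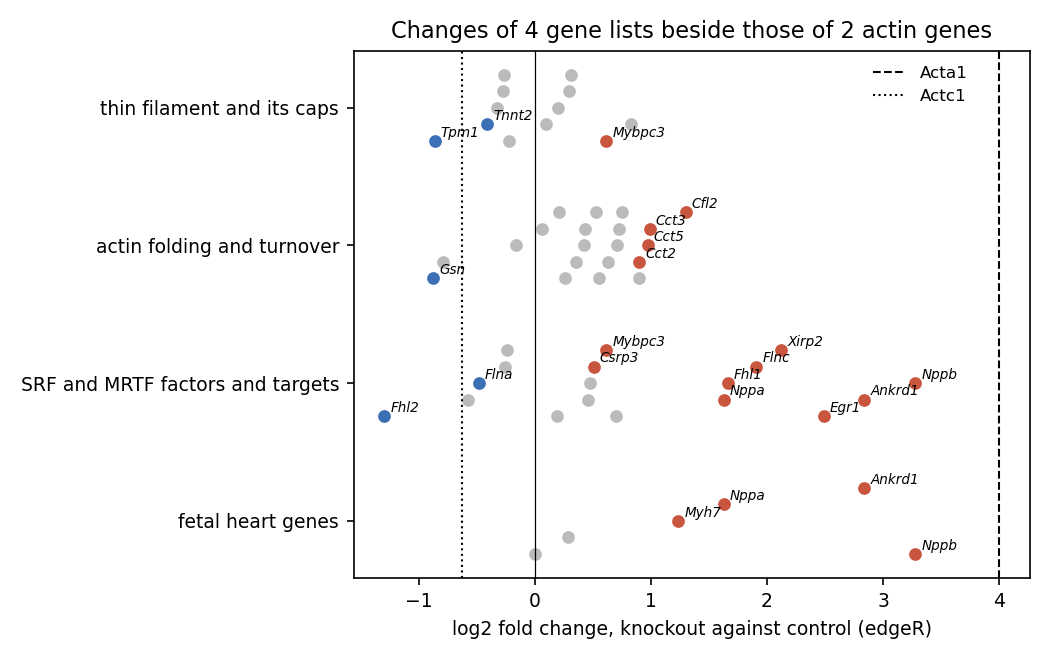
Log2 fold changes of the tested genes of 4 lists; red genes were higher, blue genes lower and grey genes did not pass the test (edgeR adjusted p under 0.05), and vertical lines mark Acta1 (4.00) and Actc1 (-0.62). Nppb, at 3.28, is the labelled gene nearest to Acta1, and the thin filament genes lie on both sides of 0.

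Actin genes are classical targets of the serum response factor Srf and of its partners, the myocardin-related factors, which are held back by free actin monomers. The listed factors and targets showed 9 rises and 2 falls among 18 tested of 28 members, and 7 did not pass, with a median log2 fold change of 0.56. The shares over all tested genes were again 8.46% and 6.85%. Xirp2, an actin-binding protein of muscle, rose by 2.12 ± 0.15 on the log2 scale and Flnc, the filamin of muscle, from 134 ± 17.8 to 502 ± 94.6 CPM (log2 fold change 1.91 ± 0.15). Fhl2, a LIM protein that binds Srf, fell to 64.4 ± 6.10 CPM from 157 ± 26.5 in controls (log2 fold change -1.29 ± 0.16, edgeR adjusted p = 1.57e-09). Flna, the filamin of non-muscle cells, was at -0.48 ± 0.16 on the log2 scale, a call lost without control 1, control 2 or knockout 1 (adjusted p up to 0.318), in DESeq2 and without the low-count filter.

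The factors themselves gave few counts. Srf was at 13.6 ± 1.52 CPM in controls and 18.9 ± 6.14 in knockouts (log2 fold change 0.46 ± 0.38). Mrtfb was at 0.20 ± 0.35 and Myocd, myocardin, at -0.57 ± 0.35 on the log2 scale, and Mrtfa, with at most 7 counts in a library, did not pass the filter. None of these factors passed the test. The smooth muscle targets Tagln and Cnn1, which are regulated with Acta2, had at most 10 counts in a library and were not tested.

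Fetal heart genes, which return together with Acta1 in the loaded heart, were higher in 4 of 6 tested of 8 listed members and lower in none, beside 8.46% and 6.85% of all tested genes, with a median log2 fold change of 1.43. Nppb and Nppa, the natriuretic peptides, had log2 fold changes of 3.28 ± 0.47 and 1.63 ± 0.20, and Ankrd1, a stress-responsive protein of the sarcomere, one of 2.84 ± 0.45 (SE). Nppb had 4, 0 and 2 counts in the controls, and its rise of 9.69-fold was 20.4-fold without control 1 and 6.23-fold without control 2. These 3 are also in the list of Srf targets. Myh7, the fetal ventricular myosin, went from 39.3 ± 6.01 to 93.5 ± 38.2 CPM (log2 fold change 1.24 ± 0.35, edgeR adjusted p = 0.0410). Its call was lost without control 1 or control 3 (adjusted p up to 0.156), and knockout 3, the knockout with the lowest share of Acta1, had 49.6 CPM of Myh7 against 120 and 111 CPM in the others. Acta2, the other actin of the fetal heart, moved the other way.

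Other actins and actin-related genes were all but absent or did not pass the test. Of 9 listed, Actbl2, Actrt1 and Actrt2 had no counts in any library. Actg2, the actin of visceral smooth muscle, had 0 counts in every control and 1, 2 and 0 in the knockouts. Actr1b and Actl6a had at most 12 counts in a library and were not tested. The 3 that were tested, Actr3 and Actr2 of the complex that branches filaments and Actr1a of dynactin, had log2 fold changes of 0.63 ± 0.29, 0.36 ± 0.31 and 0.75 ± 0.35 (SE).

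Markers of other cells are given beside the actins, since Acta1 is also the actin of skeletal muscle, Acta2 that of smooth muscle, and Actb and Actg1 are found in all cells. The 12 skeletal muscle markers summed to at most 6.60 CPM per control and 1.19 CPM per knockout, and 9 of the 12 had no counts, among them the fast myosins Myh1, Myh2 and Myh4. The other 3 had at most 2 counts in a library: Myl1 in controls 1 and 2 and knockout 3, Ryr1 in control 1 and Tnnt3 in knockout 2. Cardiac muscle markers summed to 10701 to 12673 CPM per control and 11029 to 11387 CPM per knockout, and Myh6 was at 7584 ± 885 and 7592 ± 110 CPM. Of the 8 cardiac markers, Ryr2 (-1.22 on the log2 scale), Pln (-1.08) and Tnnt2 were lower and Mybpc3 was higher. Among all tested genes, 8.46% were higher and 6.85% lower. The part of the amount of cardiac muscle in the values of Acta1 and Actc1 was not tested.

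Smooth muscle and pericyte markers showed 3 falls (Smtn, Pdgfrb and Mylk) and 1 rise (Des, also a gene of cardiac muscle) among 7 tested of 11. The shares over all tested genes, 8.46% higher and 6.85% lower, stand beside this and each marker list below. The rise of Des was lost in DESeq2 (adjusted p = 0.142) and without TMM (0.143). The 3 falls were lost in DESeq2, that of Smtn also without control 2, that of Pdgfrb without knockout 1, and that of Mylk in 6 of 12 alternatives. Their sum was 520 to 585 CPM per control and 462 to 592 CPM per knockout, most of it from Des and the pericyte gene Rgs5 (-0.25 ± 0.15 on the log2 scale, not past the test). Their median log2 fold change was -0.44, against -1.02 for Acta2. Endothelial markers were higher in 0 and lower in 0 of 6 tested, all 6 with values below 0 (median -0.35), with Cdh5 at -0.25 ± 0.19 and Kdr at -0.50 ± 0.19 on the log2 scale. Their sum was 318 to 352 CPM per control and 247 to 301 CPM per knockout, so the groups did not overlap. Fibroblast markers summed to 1946 to 2102 CPM per control and 1713 to 1959 CPM per knockout. Of the 9 tested, Dpt was lower and 8 did not pass the test, among them the collagens Col3a1 (-0.11 ± 0.12) and Col1a1 (0.01 ± 0.13). Of the 6 blood and immune markers tested, Csf1r and Lyz2 were lower. The call of Lyz2 was lost without control 1 or knockout 1 (adjusted p up to 0.306), without the low-count filter and in DESeq2. The blood and immune markers summed to 206 to 371 CPM per control and 184 to 314 CPM per knockout, with the globins Hbb-bs and Hba-a1 the most abundant. The part of these cells in the falls of Acta2 and Actb was not tested.

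The promoter of Acta1 is shown because Srf binds a short element, the CArG box, that several actin genes share. The RefSeq sequences of 250 bases before the start (GRCm38.p6) were searched on both strands for this box. Of the 5 genes, 4 had an entry. The pattern was CC, then 6 bases that are each A or T, then GG, and only exact matches were counted. In the Acta1 promoter (chr8:123894776-123895025, minus strand, 5′ to 3′), capitals mark the box, which lies 73 to 64 bases before the RefSeq start. That start lies 24 bases before the start of the gene as GENCODE gives it.
Acta1: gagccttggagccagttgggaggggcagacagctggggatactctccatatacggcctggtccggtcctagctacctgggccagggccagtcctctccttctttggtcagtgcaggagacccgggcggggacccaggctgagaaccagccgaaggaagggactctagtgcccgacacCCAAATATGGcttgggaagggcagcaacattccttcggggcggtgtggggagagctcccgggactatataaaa
Boxes were also found before Actc1 (chr2:114052903-114052932) and Actg1 (chr11:120348566-120348595), shown with 10 bases on each side. The RefSeq start of Actc1 lies 673 bases inside the gene as GENCODE gives it, so its box is within the annotated gene, and that of Actg1 lies 47 bases inside, with its box outside. No base of the 30 shown for either lies in an annotated exon.
Actc1: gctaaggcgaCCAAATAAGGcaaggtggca
Actg1: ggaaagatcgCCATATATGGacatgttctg
No box was found in the window of Acta2, which says only that these letters are not in it, and 217 of its 250 bases lie in exons that GENCODE annotates. A box was found in 1.47% of the 32851 windows of that length in the table. Acta1, which rose, and Actc1, which fell, thus both hold the box, and a match is a description and not a measured site of binding.

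The genes most like Acta1 over the 6 libraries were listed by Pearson correlation of log2 CPM among 2254 genes. They were Qsox1, a sulfhydryl oxidase, Popdc2, a membrane protein of heart and skeletal muscle, Fbxo40, a ubiquitin ligase subunit of muscle, Dmxl2 and Lrrc2, with r between 0.990 and 0.994. All 5 were higher in the knockouts, and Dmxl2 went from 12.2 to 44.3 CPM (log2 fold change 1.89) and Fbxo40 from 39.7 to 86.1 CPM (1.14). Popdc2 changed least, at 0.61, and its call was lost in 7 of 12 alternatives. Like Acta1, each of the 5 had its highest control value in control 1 and its lowest in control 3. The 5 were picked for their likeness to Acta1 over these same libraries, so their rise and this order are not separate findings. The genes most like Actc1 were Zbtb20, Lifr, F13a1, Sparcl1 and Ralgapa1 (r between 0.981 and 0.992), of which Zbtb20 and Sparcl1 were called lower. The call of Zbtb20 was lost in 4 and that of Sparcl1 in 6 of 12 alternatives, DESeq2 among them. These correlations are over 6 libraries that share the difference between the groups and were picked as the highest of many, so they are a description.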

How the data were processed

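The sequencing reads of 6 libraries were aligned with HISAT 0.1.6 to GRCm38 and counted per gene with featureCounts 1.3.5-p4, per the submitters' processing notes, and the deposited counts are whole reads per gene that are not normalized. For strand and for reads with several alignments, the sources used here do not give the settings, so antisense partners and near-identical copies cannot be told apart. The authors' deposited table of their edgeR 3.11.2 comparison holds log2 fold changes, p-values with false discovery rates, and a test score (likelihood ratio), and was used only where it is named.

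Here, genes of the mitochondrial genome were left out, library sizes were all nuclear counts, and genes passed edgeR's filterByExpr (minimum count 10, minimum total 15). The test was edgeR 4.0.16 quasi-likelihood with robust dispersion and TMM scaling in R 4.3.3, with Benjamini-Hochberg adjustment over 2351 genes and a threshold of 0.05. It was also run on simulated data, with known changes placed only in genes at or above the median level. That run does not cover low-count genes such as Actg1, and its outcome is not given here. Ratios and shares used counts per kilobase of GENCODE M21 exon union, with 0.5 added to counts in ratios, and exact two-sided permutation tests (scipy 1.17.1). Alternatives were DESeq2 1.42.0, other scalings, no filter, a replicate block, and each library left out. The precision of each value is limited by the 76949 to 164004 nuclear counts per library outside the 5 loci that collect ribosomal RNA reads. The labels speak of separate mice.

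The members, lists and tests were chosen with earlier results of these data known. Named genes were the 5 actins, up to 3 called members per list and direction with the smallest adjusted p, the Srf partners and Actg2, 2 abundant members per marker list, and the 5 genes most correlated with Acta1 and with Actc1. Tnni3, Tnnc1, Lmod2, Pfn1, Cfl1, Cct5, the 5 other actin-related genes and the called members of marker lists were named after their values were seen, as was the ratio to Myh6 chosen. Of 39142 nuclear identifiers, 37656 had a symbol.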

Additional observations from a re-analysis of the deposited data

How the results depend on the processing

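The calls of Acta1, Actc1 and Actb, and the lack of one for Actg1, were the same in all 12 alternatives, and that of Acta2 in 10. Acta2 was at -1.02 in DESeq2 (adjusted p = 0.0564), and without 1 library its log2 fold change ran from -1.17 to -0.67, the latter without control 2. The next values are differences, knockout minus control, with a library left out. That in the share of Actg1 ran from -0.2995 to 0.00372 points, above 0 without knockout 3. That in the log2 ratio of Acta2 to Actc1 ran from -0.47 to 0.035, above 0 without control 2. That in the log2 ratio of Actg1 to Actb ran from -0.49 (without knockout 2) to 0.29, and was -0.14 without control 1. The cause of these was not tested, beside the fewer samples.

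DESeq2 called 93 nuclear genes higher and 50 lower. Without the low-count filter 180 were higher and 99 lower, and without TMM 142 and 177. With a library left out 151 to 195 were higher and 106 to 147 lower, against 199 and 161 with all. In the thin filament list, 1 was lower in DESeq2, without the filter and without TMM, and with a library left out 1 to 2 were higher and 1 to 2 lower. In the folding list, 1 was higher in DESeq2, 2 without the filter and 2 without TMM, and 1 to 6 with a library left out. In the Srf list, 1 was lower in DESeq2 and 1 without the filter, and 1 to 2 with a library left out. The cause was not tested.

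Whether the replicate numbers pair the samples of the groups is not known. Deviations of same-numbered libraries from their group means had correlations of 0.000782, 0.0168 and 0.0650, the last the largest of all pairs. Those of other pairs ran from -0.0446 to 0.0252. At this depth, values so near 0 cannot show whether the samples were paired. With a replicate block 203 genes were higher and 162 lower, Acta1 was at 4.01, Actc1 at -0.64, Acta2 at -0.99, Actb at -0.73 and Actg1 at -0.64, and no actin call changed. Depth limits Acta1 in controls and Actg1 in all libraries most.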

Other observations

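Among the controls, Acta1 and Ankrd1, the stress-responsive protein of the sarcomere, fell in the same order of libraries. Acta1 was at 35.2, 14.4 and 4.77 CPM in controls 1, 2 and 3, and Ankrd1 at 72.6, 43.2 and 15.9 CPM. This order is not particular to Ankrd1: Flnc, Nppa and Myh7 also fell in it, while Xirp2, Nppb and Mybpc3 did not. The genes listed as most like Acta1 fell in it too, but they were picked for that likeness over these libraries. Myh6, Tpm1 and Ryr2 rose in this order. In the knockouts Ankrd1 was at 384, 263 and 251 CPM and Acta1 at 257, 299 and 244 CPM, in different orders. With 3 libraries in a group no relation within it was tested.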
